A study of Aedes aegypti with 48 samples.

Results

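The change in whole-body gene expression between midday (ZT5, 11 AM) and afternoon (ZT9, 3 PM) was followed in wild type (WT) Aedes aegypti females. ZT counts hours from the start of the light phase. The comparison took 12 of the 48 libraries of the series, namely the 6 labelled WT at 3 PM and the 6 labelled WT at 11 AM. The mosquitoes were of the Liverpool strain, aged 5 days from emergence, and each library was made from 10 females pooled whole. They had been kept at 27 °C on equal spans of light and dark, 12 h each, with gradual dawn and dusk. The adults had sucrose, and no label separates the pools by batch. Females were also given sheep blood in rearing, and whether those sampled had fed is not stated. The rest of the series holds WT at ZT1 and ZT13 and a Cycle knockout line (KO, Cyc-/-) of the same strain at all 4 times, also with 6 libraries per group, of which KO at ZT5 and ZT9 and WT at ZT1 and ZT13 were used below for comparison. In whole bodies, a lower level can mean less RNA per cell or fewer cells of a type, and these cannot be told apart.

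Cycle (Cyc) is a bHLH-PAS transcription factor of the circadian clock. In insects it pairs with Clock, and the pair switches on genes that carry E-box motifs, among them the genes of its own repressors, so that transcription of clock genes and of their targets rises and falls over the day. Aedes aegypti bites by day and is most active in the morning and again late in the afternoon, and ZT5 falls between these times.

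The 12 libraries held between 24037067 and 33232780 counts on genes, and the ranges at ZT5 and ZT9 overlapped. The library labelled WT ZT9 replicate 2 held the same counts for all 19804 gene identifiers as the library labelled KO ZT13 replicate 1, so that 1 library carries 2 labels. In a table of the study's supplement, the 6 columns headed WT ZT9 matched the libraries deposited as WT ZT5 best, and those headed KO ZT13 matched the libraries deposited as WT ZT9. Columns headed KO ZT5 matched libraries deposited as KO ZT9, and those headed KO ZT9 matched WT ZT1. Columns headed WT ZT1 matched KO ZT5, and those headed WT ZT5 matched KO ZT13. Only for KO ZT1 and WT ZT13 were heading and deposited group the same. The groups that differ include KO at ZT5 and ZT9 and WT at ZT1, which are used below. The deposited labels were followed. At 58 genes that separated KO from WT at ZT1 and ZT13 without overlap, each library labelled WT at ZT5 or ZT9 lay on the WT side for 54 to 58 genes, and the library with 2 labels for all 58. Whether the hours of the labels are right was not tested. WT ZT9 replicate 4 stood apart from the other 5 pools of its group in 721 of the 11730 genes tested (6.15%), counted where the gap between the extreme library and its neighbour passed Dixon's critical value for 6 samples, against 0.409% to 1.06% for the other libraries at ZT9. Results are therefore given with all 12 libraries and, where it matters, without either of these. Of the tissue markers that could be named, those of the salivary gland summed to 444 to 533 CPM at ZT5 and 430 to 528 CPM at ZT9. Those of the nervous system summed to 178 to 215 CPM and 183 to 310 CPM, and 1 midgut trypsin lay between 1.22 and 2.53 CPM and between 2.2 and 6.96 CPM. The opsins and a transient receptor potential channel summed to 7500 to 10400 CPM at ZT5 and 7860 to 11700 CPM at ZT9. Most of this was the opsin AAEL006259, and the tissue of the channel was not checked. No marker of these lists was at 0 in all 12 libraries. CPM are counts per 1000000, scaled by TMM factors over the 48 libraries.

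In WT, Cyc and a small set of genes fell from midday to afternoon, while a smaller set rose. Of 11730 genes tested, 131 were called at an adjusted p below 0.05 by edgeR's quasi-likelihood test (1.12%), 51 of them higher at ZT9 (0.435%) and 80 lower (0.682%). Without the library with 2 labels, 96 genes were called (0.816%), 38 higher (0.323%) and 58 lower (0.493%), and 86 of them were among the 131. Without WT ZT9 replicate 4, 195 genes were called, 60 higher and 135 lower, and 124 of them were among the 131. Most changes were small, with a median size of 0.60 on the log2 scale among the higher genes and 0.45 among the lower ones. Of the 131 genes, 20 changed more than 2-fold, 11 upwards and 9 downwards. The 6 libraries at ZT9 lay above all 6 at ZT5 for 43 of the 51 higher genes and below all of them for 62 of the 80 lower genes, where 1.54% of all tested genes had groups that did not overlap. The median change over all genes was 0.01 on the log2 scale. At an unadjusted p below 0.05, 575 of the 11730 genes were higher and 731 lower, the numbers to set beside unadjusted counts in lists.

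**Figure D1:**
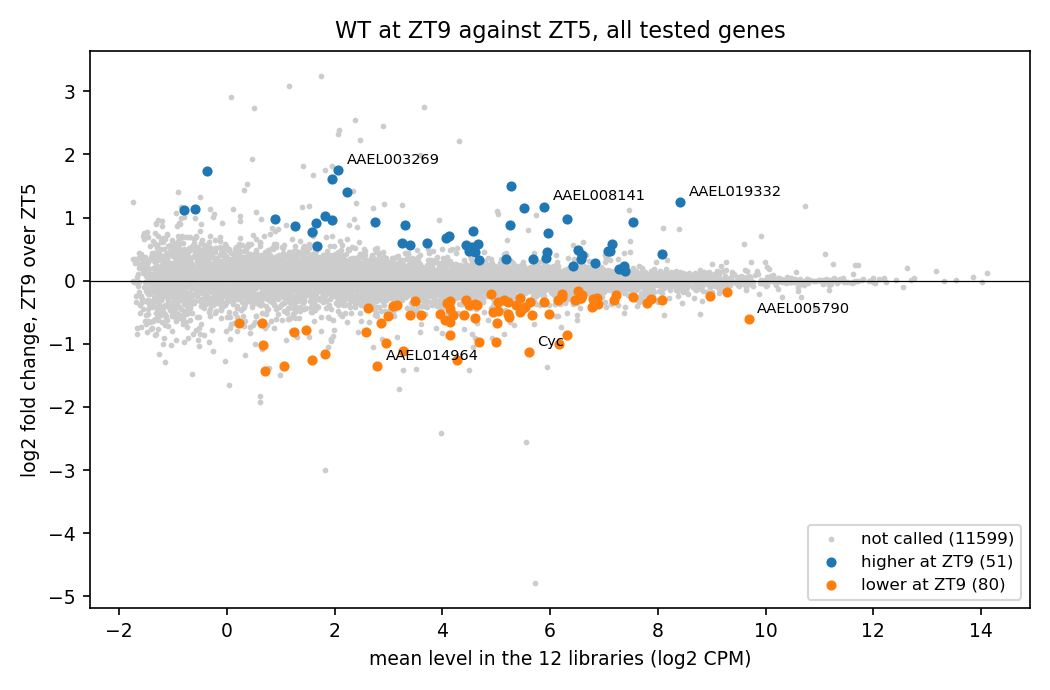
Each point is a gene tested in WT, with its mean level in the 12 libraries on the x axis (log2 CPM) and its log2 fold change at ZT9 over ZT5 on the y axis. The 51 genes called higher and the 80 called lower at ZT9 are coloured, and most of them lie within 1 log2 unit of 0, while some weakly expressed genes of larger change were not called.

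The RNA of Cyc itself (AAEL002049) fell to under 0.5 of its midday level, a fall that was known when this comparison was chosen. Its level at ZT5 ran from 64.9 to 70.2 CPM with a median of 66.6, and at ZT9 from 27.4 to 33.4 CPM with a median of 30.9. All 6 afternoon pools lay below all 6 midday pools, with a gap wider than the range within either group. The log2 fold change was -1.13 (SE 0.05), which is 0.458 times the midday level and is given as a description. Over the 12 fits that each left out 1 library, the log2 fold change ran from -1.15 to -1.10. The levels at the other 2 times were 71.0 ± 5.15 CPM at ZT1 and 39.9 ± 3.46 CPM at ZT13 (SD, n = 6), so that Cyc was near its morning level at midday and lowest at ZT9.

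The study's pathway tables list 10 identifiers under circadian rhythm, Cyc included. That list was read from genes that differed between KO and WT at ZT1, ZT9 or ZT13, by the hours the study gives. It so rests in part on the WT ZT9 libraries, and may rest on those of WT ZT5 too, given the headings that did not match. This makes it no independent evidence of direction. All 10 were tested, 2 were higher at ZT9, 1 (Cyc) was lower and 7 were not called, with a median log2 fold change of 0.06. Of all genes tested, 0.435% were higher and 0.682% lower, and the fall of Cyc was known when the comparison was chosen. The same 3 genes were called without WT ZT9 replicate 2 and without replicate 4. The files and the reference pair no gene names with the other 9 identifiers, which are therefore given as they stand.

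AAEL008141, listed under circadian rhythm and under transcription regulator complex, moved opposite to Cyc. It lay between 32.7 and 41.4 CPM at ZT5 (median 35.9) and between 65.8 and 96.5 CPM at ZT9 (median 81.0). The groups did not overlap. The log2 fold change was 1.17 (SE 0.09, edgeR adjusted p = 1.77e-05), and the gene was called in all 12 fits that left out 1 library. Its mean went on to 185 ± 5.87 CPM at ZT13, after 83.4 ± 8.15 CPM at ZT1 (SD, n = 6), so that midday was its lowest point of the 4 times. AAEL011371 ran from 74.6 to 93.9 CPM at ZT5 (median 82.6) and from 97.5 to 139 CPM at ZT9 (median 104.0). These groups did not overlap either, though the ZT9 value of 139 CPM was that of replicate 4 and the other 5 pools reached no more than 110 CPM. The log2 fold change was 0.41 (SE 0.08, edgeR adjusted p = 0.0278), and 0.33 (adjusted p = 0.0119) without that library. The call was lost when WT ZT5 replicate 1, 2, 3 or 5 was left out, with edgeR adjusted p between 0.0642 and 0.0695.

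AAEL019461 came nearest among the members that were not called, with 48.6 to 87.7 CPM at ZT5 (median 70.4) and 84.1 to 132 CPM at ZT9 (median 103). The groups overlapped, and the log2 fold change of 0.57 (SE 0.15) had an edgeR adjusted p of 0.091. AAEL022593, the least abundant of the list, lay between 3.69 and 7.89 CPM at ZT5 and between 3.55 and 5.65 CPM at ZT9, with a log2 fold change of -0.32 and an edgeR adjusted p of 0.592. For the other 5 members the estimates lay near 0. AAEL005238 and AAEL019753, which are also listed under Wnt signalling, had log2 fold changes of 0.03 and 0.02. Those of AAEL005255, AAEL007805 and the phosphatase-annotated AAEL018126 were 0.00, 0.09 and 0.08, and none of the 5 passed the test (edgeR adjusted p from 0.755 to 0.991).

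**Figure D2:**
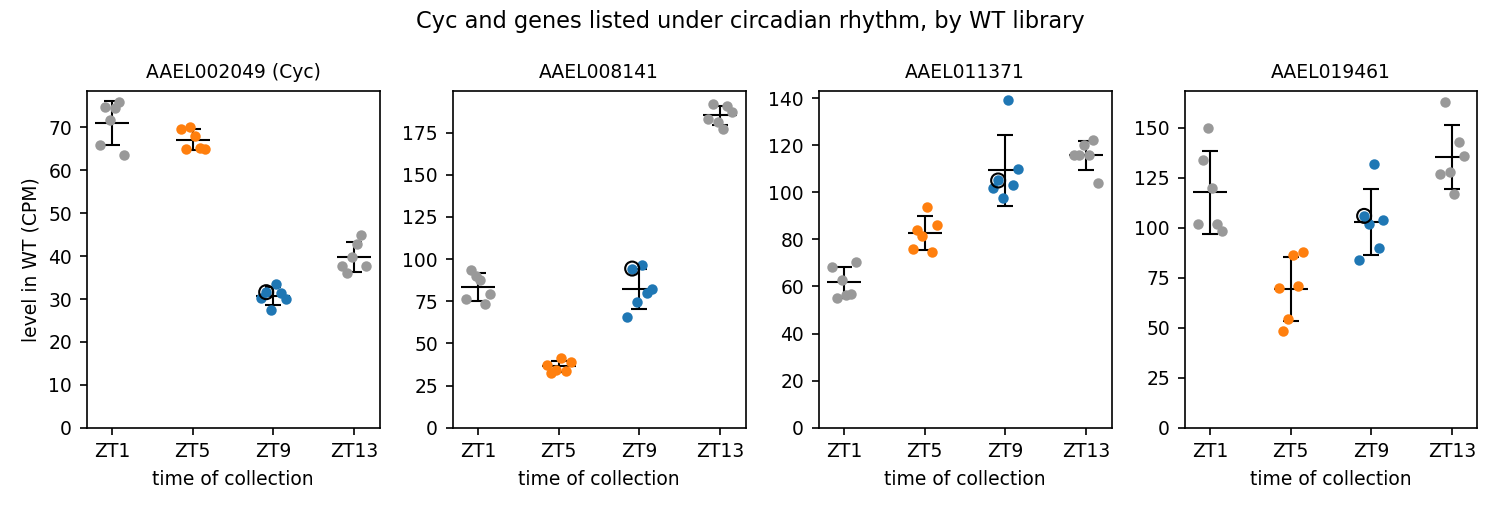
Level in CPM of Cyc and of 3 genes listed under circadian rhythm in each WT library at ZT1, ZT5, ZT9 and ZT13 (bar and whiskers, mean ± SD, n = 6). The ringed point is WT ZT9 replicate 2, the library with 2 labels, which lies among the other ZT9 pools in all 4 panels. Cyc drops between ZT5 and ZT9 while AAEL008141 climbs from its midday low.

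Among the genes that rose most in the afternoon, few carry an annotation. By a rule on the size of change among genes called with and without WT ZT9 replicate 2 at a mean of at least 1 log2 CPM, the 8 leading genes were AAEL003269, AAEL007812, AAEL006381, AAEL004933, AAEL019332, AAEL008141, AAEL000500 and AAEL013197. AAEL003269 had the largest rise, from 1.42 to 2.55 CPM at ZT5 (median 1.86) to 5.30 to 8.36 CPM at ZT9 (median 6.02), a log2 fold change of 1.75 (SE 0.17, edgeR adjusted p = 9.78e-05). No afternoon pool came down to the midday range. AAEL007812, annotated with heme binding and monooxygenase activity as cytochrome P450 enzymes are, ran from 1.06 to 2.60 CPM and from 2.76 to 8.61 CPM. Its log2 fold change was 1.61 (SE 0.27, edgeR adjusted p = 0.00843), and its groups, though close at their edges, did not overlap.

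AAEL006381, annotated as a phosphoric ester hydrolase, was more abundant, with 15.2 to 25.8 CPM at ZT5 (median 19.9) and 42.8 to 69.3 CPM at ZT9 (median 55.3). It rose by 1.49 on the log2 scale (SE 0.14, edgeR adjusted p = 7.51e-05), with a wide gap between the groups. AAEL000500 went from 22.7 to 33.7 CPM (median 28.3) to 46.3 to 78.0 CPM (median 64.6), a log2 fold change of 1.16 (SE 0.13, edgeR adjusted p = 0.000246). Its means at ZT1 and ZT13 were 61.5 and 63.0 CPM, so that midday was a dip from which it had returned by ZT9. AAEL004933 and AAEL013197 rose by 1.41 and 1.03 (edgeR adjusted p = 0.00712 and 0.0061) and stood higher again at ZT13, with means of 12.7 and 10.5 CPM against 6.79 and 4.75 CPM at ZT9.

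AAEL019332 was the most abundant of these, and the least even. Its pools ran from 130 to 259 CPM at ZT5 (median 202) and from 203 to 698 CPM at ZT9 (median 483), and the groups overlapped. The log2 fold change was 1.25 (SE 0.25, edgeR adjusted p = 0.0251), and without the library with 2 labels it was 1.41 (adjusted p = 0.00158). The call was lost without WT ZT5 replicate 2, 3 or 5 or WT ZT9 replicate 1 or 5, with edgeR adjusted p from 0.0566 to 0.0681.

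The 8 leading genes that fell were AAEL014964, AAEL010647, AAEL009126, AAEL013077, AAEL009044, Cyc, AAEL009432 and AAEL000596, and all of them kept their groups apart. AAEL014964 lay between 7.35 and 14 CPM at ZT5 (median 9.77) and between 2.97 and 4.59 CPM at ZT9 (median 3.95), a log2 fold change of -1.36 (SE 0.17, edgeR adjusted p = 0.000634). It had been at 20.2 ± 2.53 CPM at ZT1 and was back at 9.13 ± 2.33 CPM at ZT13 (SD, n = 6), so that ZT9 was its lowest time. AAEL013077 fell from 23 to 30.8 CPM (median 27.4) to 9.75 to 15.2 CPM (median 10.7), by 1.25 on the log2 scale (SE 0.10, edgeR adjusted p = 1.77e-05). Replicate 4 gave its 15.2 CPM, and the other afternoon pools did not pass 11.8 CPM.

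Of the others, AAEL009126, with the same heme binding and monooxygenase annotation as AAEL007812, went the other way, from 3.43 to 4.67 CPM to 1.40 to 2.37 CPM (log2 fold change -1.25, SE 0.14, edgeR adjusted p = 0.00028). AAEL009044 fell from 4.43 to 5.74 CPM to 1.60 to 2.55 CPM (log2 fold change -1.16, SE 0.12, edgeR adjusted p = 0.000183). AAEL009432, listed under phagosome, fell from 10.7 to 16 CPM to 4.95 to 8.70 CPM (log2 fold change -1.11, SE 0.14, edgeR adjusted p = 0.000675). At ZT13 the means of these 3 genes were 1.80, 2.76 and 6.41 CPM, close to those at ZT9 (1.77, 2.18 and 6.14 CPM).

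Myosins, the motor proteins that move along actin, were called in both directions. AAEL000596, named as a myosin by the study, was among the more abundant genes that fell, from 84.0 to 104 CPM at ZT5 (median 95.1) to 39.3 to 61.6 CPM at ZT9 (median 47.5). Its log2 fold change was -0.995 (SE 0.09, edgeR adjusted p = 7.51e-05). AAEL006095 is annotated with actin filament binding but is not named as a myosin, and is described here after its values were seen. It went from 86.6 to 115 CPM (median 102) to 48 to 74.4 CPM (median 53.4), a log2 fold change of -0.85 (SE 0.10, edgeR adjusted p = 0.00028). For these 2 genes the fall was close in size and the groups lay apart.

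AAEL009991, a myosin III, rose instead. The class III myosin of Drosophila acts in photoreceptor cells, and this gene is listed under phototransduction, the pathway that turns light into a change of membrane current. It lay in a narrow band of 45.1 to 49.5 CPM at ZT5 (median 45.8) and between 69.4 and 102 CPM at ZT9 (median 75.5). The highest value was that of replicate 4, and the next was 77.1 CPM, still far above the midday pools. The log2 fold change was 0.76 (SE 0.08, edgeR adjusted p = 0.000175), and 0.67 (adjusted p = 1.76e-06) without replicate 4. Its mean was 106 ± 7.48 CPM at ZT13 and 54.2 ± 3.32 CPM at ZT1 (SD, n = 6).

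Of 6 members of the phototransduction list, all had an estimate above 0 (median 0.17) and 3 were higher at an unadjusted p below 0.05. AAEL009991 alone was called by edgeR or DESeq2. Of all 11730 genes tested, 575 were higher at that unadjusted p and 0.435% were called higher. Opsins and a channel outside that list gave other values. The transient receptor potential channel AAEL005437, of the channel family that carries the light response in Drosophila photoreceptors, fell from 10.4 to 14.53 CPM to 6.55 to 11.1 CPM (log2 fold change -0.55, SE 0.11, edgeR adjusted p = 0.0329). Its groups overlapped, and it stayed called in 2 of the 12 fits that left out 1 library (edgeR adjusted p up to 0.0813). The long wavelength opsin AAEL006259, a light-sensing protein of the eye and among the most abundant RNAs, lay between 7488 and 10420 CPM at ZT5 and between 7856 and 11730 CPM at ZT9, with a log2 fold change of 0.16 (SE 0.10, edgeR adjusted p = 0.589). Of the other 2 long wavelength opsins, AAEL005621 had a log2 fold change of -0.52 and was not called. AAEL005625 was too weakly expressed to be tested, and both lay below 1.8 CPM in every library.

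Lists for metabolism and for protein handling were drawn from the same tables of the study. These held genes that differed between KO and WT at ZT1, from libraries that by their labels share none with this comparison. Whether the mismatch of headings described above extends to these tables was not tested. Protein export, the passage of new proteins into the endoplasmic reticulum, had 9 members tested, 3 of them lower and none higher (edgeR), where 0.682% of all genes were lower. At an unadjusted p below 0.05 4 members were lower and 0 higher, and DESeq2 called the same numbers. All 9 estimates were below 0, with a median of -0.10. AAEL013989 (log2 fold change -0.27, edgeR adjusted p = 0.00506), AAEL004523 (-0.25, adjusted p = 0.00442) and AAEL010716 (-0.22, adjusted p = 0.00726) were the 3. The changes were small and the groups lay apart, as for AAEL004523 with 190 to 216 CPM at ZT5 and 163 to 174 CPM at ZT9. These 3 genes were called in all 12 fits that left out 1 library.

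The same 3 genes are listed under phagosome, where 5 of 36 members were lower and none higher by edgeR (1 higher at an unadjusted p below 0.05, 0 by DESeq2). The other 2 were AAEL009432, above, and AAEL001005, annotated with protein folding in the endoplasmic reticulum, at 628 to 707 CPM at ZT5 and 565 to 618 CPM at ZT9 (log2 fold change -0.18, edgeR adjusted p = 0.0414). Thus 4 of the 5 phagosome genes that fell carry endoplasmic reticulum terms, and the median of the whole list was -0.02. Protein processing in the endoplasmic reticulum, a term looked at after the calls were known, added AAEL007441 (-0.31, edgeR adjusted p = 0.00736) and AAEL013320 (-0.26, adjusted p = 0.0332), so that 5 of its 36 listed members were lower and none higher (0 higher at an unadjusted p below 0.05 or by DESeq2). Of all genes tested, 0.682% were lower, which is the share to set beside both lists. AAEL001005 and AAEL013320 stayed called in 3 and 5 of the 12 fits that left out 1 library, and AAEL007441 in all 12. The proteasome list, for the complex that degrades proteins, had 12 estimates below 0 (median -0.10). None was called by edgeR or DESeq2 and 3 had an unadjusted p below 0.05, where 731 of all 11730 genes tested were lower.

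Glutathione metabolism, a route of detoxification and of defence against oxidants, had 24 members tested, with 3 lower and none higher by edgeR, where 0.682% of all genes were lower, and a median of -0.10. At an unadjusted p below 0.05 2 members were higher, and DESeq2 called 1 higher. AAEL006829 fell from 48.3 to 58.5 CPM (median 52.7) to 35.6 to 45.6 CPM (median 38.9), a log2 fold change of -0.42 (SE 0.07, edgeR adjusted p = 0.0064). AAEL000581 (-0.28, edgeR adjusted p = 0.0267) and AAEL004229 (-0.32, adjusted p = 0.0378) were closer to the threshold and stayed called in 5 and 2 of the 12 fits that left out 1 library. AAEL006829 and AAEL004229 are also listed under drug metabolism, where 4 of 24 tested members were lower, the others being AAEL005903 (-0.35) and AAEL005839 (-0.41). Of these 4, AAEL006829 alone kept its call without WT ZT9 replicate 2, where the edgeR adjusted p of AAEL004229, AAEL005903 and AAEL005839 was 0.0798, 0.0868 and 0.0659, and the last 2 stayed called in 3 of the 12 fits that left out 1 library. Monooxygenase activity, a term that covers cytochrome P450 enzymes, had 51 members tested, where 0.435% of all genes were higher and 0.682% lower. It held 1 higher gene (AAEL007812) and 4 lower ones. Beside AAEL009126 these were AAEL000320 (-1.42), AAEL002043 (-0.31) and AAEL000834 (-0.55), with edgeR adjusted p of 0.0425, 0.043 and 0.0315, and each lost its call without WT ZT9 replicate 2 (0.0659, 0.0968 and 0.0613). These terms were looked at after the calls were known.

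In the lists of lipid and carbon metabolism few genes were called by edgeR, and those described here fell. Of all genes tested, 0.682% were lower. Of 25 fatty acid metabolism genes, AAEL020502, a fatty acid elongase by annotation, was the only one called, from 26 to 31 CPM at ZT5 to 16.1 to 24 CPM at ZT9 (log2 fold change -0.60, SE 0.09, edgeR adjusted p = 0.00242). At an unadjusted p below 0.05 10 members of that list differed, 2 of them higher, and DESeq2 called 1 higher and 6 lower. Without WT ZT9 replicate 4, 3 members were called lower. Of 11 members of insect hormone biosynthesis, the pathway of juvenile hormone and ecdysone, AAEL017320 was called, at 17.2 to 25.8 CPM and 9.64 to 16.8 CPM (log2 fold change -0.85, SE 0.13, edgeR adjusted p = 0.00307), while DESeq2 called 1 member higher and 1 lower. Carbon metabolism had 32 of 36 estimates below 0 (median -0.09, against 0.01 over all genes tested) and 2 calls. These were AAEL005336 (-0.28, edgeR adjusted p = 0.00242), which is also listed under serine and methionine metabolism, and AAEL013407 (-0.29, adjusted p = 0.0315), which is also the single call of the FoxO list and was lost without WT ZT9 replicate 2 (adjusted p = 0.0772). Outside these lists AAEL007055, annotated with lipase activity, rose by 0.45 on the log2 scale (edgeR adjusted p = 0.0427), with groups that overlapped and a call lost without WT ZT9 replicate 2 (adjusted p = 0.0791). Another called gene with that term fell by 0.77 (edgeR adjusted p = 0.0332), with groups apart. Its call was also lost without that library (adjusted p = 0.077).

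Members of the other lists were not called. None was called by edgeR among 15 genes of glycerolipid metabolism, 14 of glycolysis, 7 of starch and sucrose metabolism, 46 of MAPK signalling, 20 of ribosome biogenesis, 15 of aminoacyl-tRNA biosynthesis, 16 of DNA replication, 18 of the Fanconi anemia pathway and 10 of Toll and Imd signalling, with list medians between -0.12 and 0.04. Over the 154 genes of these 9 lists, 4 were higher and 8 lower at an unadjusted p below 0.05. Of all 11730 genes tested, 575 were higher and 731 lower at that threshold. In the 9 lists DESeq2 called 0 higher and 4 lower. The 5 odorant binding proteins, the 5 salivary proteins and the 5 neuropeptides or their receptors also held no call, with log2 fold changes between -0.16 and 0.30, and 0 of these 15 had an unadjusted p below 0.05 or a call by DESeq2.

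**Figure D3:**
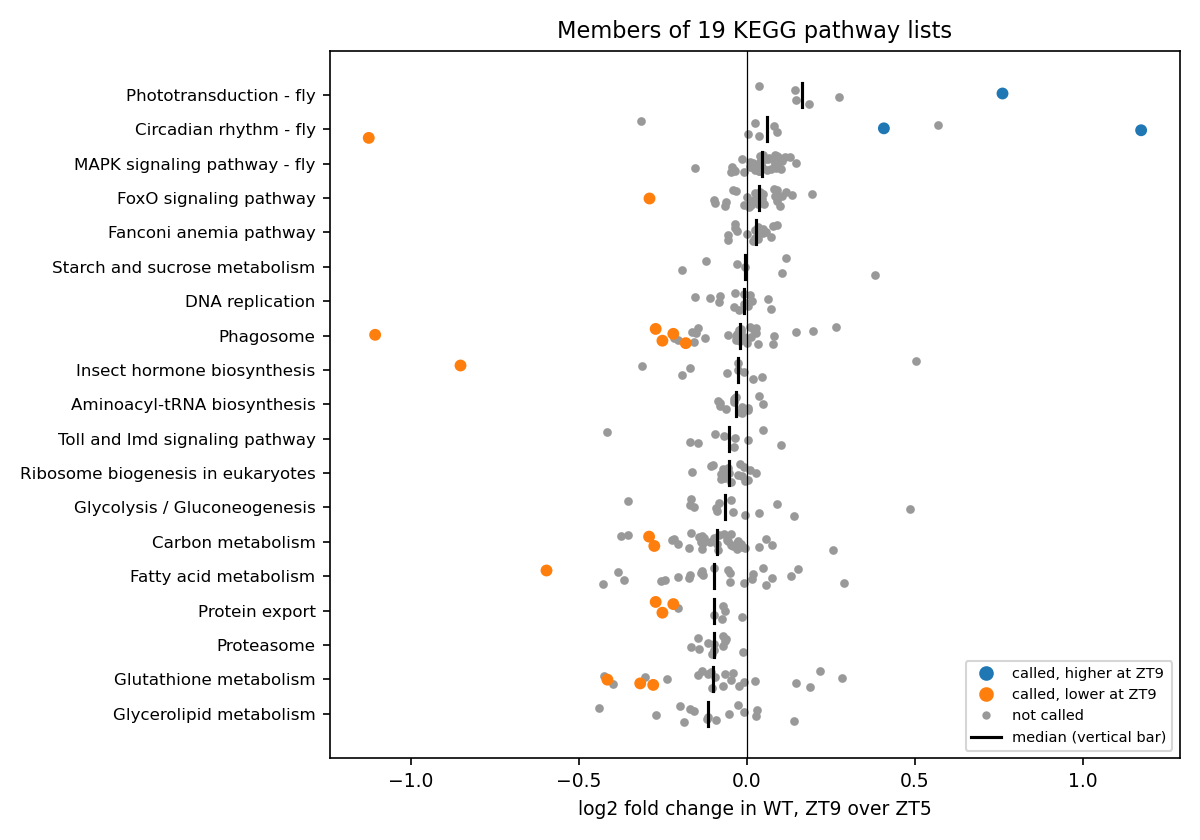
Each point is a tested member of a KEGG pathway list, at its log2 fold change in WT at ZT9 over ZT5, with a vertical bar at the list's median. Coloured points passed the test. Lower calls gather in phagosome, protein export and glutathione metabolism, where most members lie close to 0, and the circadian rhythm list spans -1.13 to 1.17.

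Of the immune genes, 2 that varied widely between pools are described, chosen after their values were seen. Cecropin-B (AAEL029041), an antimicrobial peptide, lay between 0.692 and 324 CPM at ZT5 (median 4.74) and between 0.725 and 67.7 CPM at ZT9 (median 1.112). The groups overlapped, and its log2 fold change of -2.56 had an SE of 1.44 and an edgeR adjusted p of 0.554. The galactose-binding C-type lectin AAEL005641, a pattern recognition protein, behaved alike, with 1.52 to 50.4 CPM and 1.25 to 18.8 CPM (log2 fold change -1.42, SE 0.89, edgeR adjusted p = 0.597). Both afternoon maxima came from the library with 2 labels, and without it the log2 fold changes were -4.97 and -2.50 (edgeR adjusted p = 0.247 and 0.329). Of the 2 tested antimicrobial peptides and the 7 immune recognition genes none was called by edgeR or DESeq2, and 0 had an unadjusted p below 0.05.

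Peptidases, examined after the calls were known, held more calls upwards than downwards. The lists as a whole did not rise, with a median log2 fold change of -0.0101 for exopeptidase activity and -0.00365 for metallopeptidase activity. Exopeptidases, which trim proteins from their ends, had 3 higher genes among 33 tested and none lower by edgeR, where 0.435% of all genes were higher, with no member lower at an unadjusted p below 0.05 or by DESeq2. These were AAEL012783 (log2 fold change 0.35), AAEL007892 (0.33) and AAEL027166 (0.45), with edgeR adjusted p of 0.0252, 0.0267 and 0.0281. The calls of the first 2 were lost without WT ZT9 replicate 2 (0.0611 and 0.0591), and each of the 3 stayed called in at most 6 of the 12 fits that left out 1 library. The metallopeptidase AAEL005076 rose by 0.56 (adjusted p = 0.0285) and the metalloendopeptidase AAEL008527 fell by 0.43 on the log2 scale (adjusted p = 0.0385), and both were lost without WT ZT9 replicate 2 (0.0688 and 0.0754). The midgut trypsin AAEL007601, the one midgut marker that could be named, had a mean 2.26 times as high at ZT9 (edgeR adjusted p = 0.099) and was called higher by DESeq2. Its part in the peptidase calls was not tested.

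Other genes that stand out by level or annotation were chosen after their values were seen. AAEL011810, annotated with rhythmic process, rose from 17.4 to 21.1 CPM at ZT5 to 23.9 to 35.1 CPM at ZT9 (log2 fold change 0.53, SE 0.10, edgeR adjusted p = 0.0127) and was called in all 12 fits that left out 1 library. AAEL023490, annotated with chitin binding, rose from 22.9 to 33.1 CPM to 41.6 to 58.6 CPM (log2 fold change 0.88, SE 0.11, edgeR adjusted p = 0.000561). AAEL021931 and AAEL020729 rose by 0.93 and 0.97 (edgeR adjusted p = 0.000238 and 0.000285), and replicate 4 gave the highest ZT9 value of each. Without it the log2 fold changes were 0.81 and 0.85 and both stayed called.

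Of the called genes AAEL005790 was the most abundant, and it fell. It lay between 883 and 1071 CPM at ZT5 (median 1010) and between 531 and 832 CPM at ZT9 (median 600), a log2 fold change of -0.61 (SE 0.10, edgeR adjusted p = 0.00809). It was highest at ZT13, at 1488 ± 202 CPM, and 698 ± 86.8 CPM at ZT1 (SD, n = 6). AAEL012349, listed under steroid biosynthesis, fell by 0.81 on the log2 scale (SE 0.13, edgeR adjusted p = 0.00782).

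The same interval was then compared in the KO line, which lacks functional Cyc, to ask which changes of the WT differ between genotypes. In KO, 7 of 11647 genes were called between ZT9 and ZT5 (0.0601%), 1 higher (0.00859%) and 6 lower (0.0515%) by edgeR. AAEL008141 was the 1 that rose, and the only gene called in the same direction in both genotypes, which is 0.763% of the 131 WT genes and 14.3% of the 7 KO genes. Its rise in KO, from 44.3 ± 4.54 to 66.0 ± 9.01 CPM (SD, n = 6), was 0.58 on the log2 scale (edgeR adjusted p = 0.0442), and the difference between genotypes of 0.59 did not pass the test (adjusted p = 0.149). The edgeR adjusted p of the 7 KO genes ran from 0.00476 to 0.0477. Fewer than 7 were called in most fits that left out 1 library, and DESeq2 called more. Whether AAEL008141 kept its KO call in those fits is not given here. Of 130 WT genes also tested in KO, 112 had an estimate of the same sign there (86.2%), against 54.3% of all genes tested in both.

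The difference itself, as the interaction of genotype and time over 24 libraries, was called for 6 of 12046 genes (0.0498%), and all 6 fell further in WT. None was called in the other direction by edgeR, where 377 genes had an unadjusted p below 0.05 and DESeq2 called 15. The 6 genes were Cyc, AAEL009044, AAEL009126, AAEL000905, AAEL013077 and AAEL009432, and all are among the 80 lower genes of the WT. Cyc, whose WT fall was known beforehand, fell by 0.93 more on the log2 scale in WT (SE 0.09). In KO it lay at 32.9 ± 1.88 CPM at ZT5 and 28.7 ± 3.27 CPM at ZT9 (SD, n = 6), about the level of the WT in the afternoon, and its own change there was -0.20 (edgeR adjusted p = 0.548).

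AAEL009044 differed from Cyc in that its KO means lay above the WT midday mean at both times. It was at 4.88 ± 0.45 CPM at ZT5 and 2.18 ± 0.34 CPM at ZT9 in WT, and at 5.85 ± 0.66 and 5.43 ± 0.33 CPM in KO (SD, n = 6). The interaction was -1.06 (SE 0.14, edgeR adjusted p = 0.000587). AAEL009126 went from 4.24 to 1.77 CPM in the WT means and from 6.46 to 5.92 CPM in KO (interaction -1.13, SE 0.17, adjusted p = 0.00234). AAEL000905, annotated as a carboxylic ester hydrolase, went from 10.4 to 5.19 CPM in WT and from 9.49 to 9.06 CPM in KO (interaction -0.93, SE 0.16, edgeR adjusted p = 0.0186). The changes of these 3 genes in KO were -0.10, -0.13 and -0.07 on the log2 scale and were not called there (edgeR adjusted p from 0.914 to 0.981).

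AAEL013077 and AAEL009432 were nearer to the threshold. AAEL013077 fell from 27.3 to 11.4 CPM in the WT means and from 34.3 to 25.2 CPM in KO (interaction -0.81, SE 0.14, edgeR adjusted p = 0.0197). AAEL009432 fell from 13.3 to 6.14 CPM in WT and from 20.0 to 17 CPM in KO (interaction -0.87, SE 0.17, edgeR adjusted p = 0.0457). Without the library with 2 labels the adjusted p was 0.0557 and 0.0711. Of 24 fits that left out 1 library, AAEL013077 was called in 18 and AAEL009432 in 5, while AAEL000905 was called in 22 and the other 3 in all 24. Without WT ZT9 replicate 4, 17 genes were called in the interaction, 2 of them higher. For the leading genes that rose, such as AAEL003269 and AAEL006381, the interactions of 1.00 and 1.20 did not pass the test (edgeR adjusted p = 0.198 and 0.122).

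**Figure D4:**
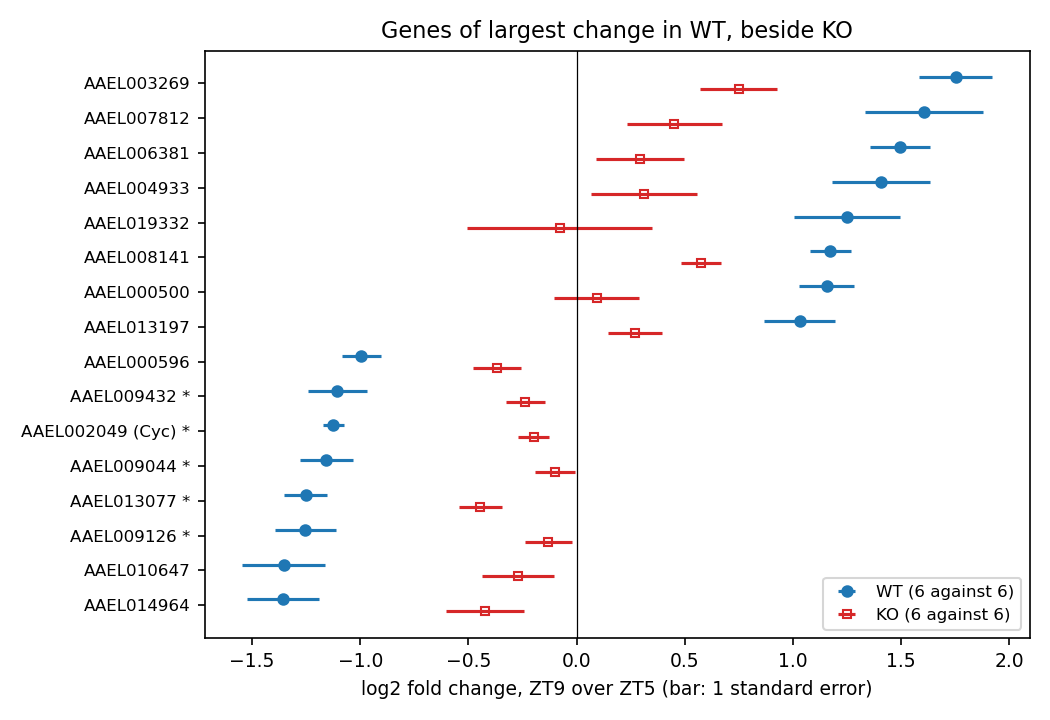
Log2 fold change at ZT9 over ZT5 for the 8 leading higher and 8 leading lower genes of the WT (filled circles) beside the same genes in KO (open squares), with bars of 1 standard error and 6 libraries per group. An asterisk marks the 5 genes shown whose difference between genotypes was called. The genes were chosen for their change in WT, a choice that by itself tends to place the KO estimates nearer to 0.

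WT at ZT13 against ZT1, from 12 other libraries, set the start of the night against the start of the day. There 1527 of 11536 genes were called by edgeR (13.2%). Of the 131 genes, 66 were called in the same direction, which is 50.4% of them and 4.32% of the 1527, and 14 in the opposite direction. Among the 66 were AAEL008141 (log2 fold change 1.15 at ZT13 over ZT1), AAEL009991 (0.97), AAEL013077 (-2.15), AAEL000596 (-0.94) and Cyc (-0.83), with edgeR adjusted p of 7.81e-09, 1.12e-08, 3.39e-11, 2.5e-08 and 4.34e-07. AAEL005790 was among the 14, higher at ZT13 by 1.09 (edgeR adjusted p = 2.02e-06), as was the carboxylic ester hydrolase AAEL023844, which fell by 0.54 between ZT5 and ZT9 (adjusted p = 0.000507) and was higher at ZT13 than at ZT1 by 0.79 (adjusted p = 7.58e-07). AAEL000500 gave 0.04 (edgeR adjusted p = 0.83) there.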

How the data were processed

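RNA of pooled whole females was enriched by poly-A selection and sequenced as 50 bp paired ends. The authors trimmed reads with Trim Galore 0.6.6, used HISAT2 2.2.1 for alignment to AaegL5_2 of VectorBase, and counted reads on genes with HTSeq 0.11.3. They deposited raw counts, whole numbers with no scaling. Whether counting used strand was not stated in what was read, which limits genes that overlap or have close copies. Summary lines (5 per file, 68.3% to 76.4% of a library's total) were left out.

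Groups came from the titles. As a check of the labels, 1043 genes of a supplementary table were correlated with the libraries, and genes were taken whose 23 KO libraries (all but the one with 2 labels) and 12 WT libraries at ZT1 and ZT13 lay at least 0.3 apart on the log2 scale. Counts were tested with edgeR 4.0.16 in R 4.3.3 (quasi-likelihood test, TMM factors, filterByExpr, Benjamini-Hochberg adjustment over all tested genes, adjusted p below 0.05). On simulated counts with 200 genes changed 2-fold, the test called 181 of them and 9 others. The simulation held no smaller changes and no outlying library, so it does not cover most of the calls here. The SE of a log2 fold change is its size over the square root of the F statistic. Nothing shows that replicates were separate rearings, so p-values measure the spread between these pools. Alternatives were DESeq2 1.42.0, its size factors in edgeR, no filter beyond 1 count, all 24 WT libraries in a single fit, the replicate number as a block and each library left out.

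The comparison, lists and gene rule were chosen with earlier results of these data known, and the values without WT ZT9 replicate 4 were set beside lists and genes after seeing the data. Named genes are Cyc, the circadian list, the 8 higher and 8 lower of largest change called with and without WT ZT9 replicate 2 at a mean of at least 1 log2 CPM, overall and among genes the study names, up to 2 called genes per list and direction, and the 4 genes of lowest interaction p. A further 29 were chosen after their values were seen. Of 19804 identifiers 0 matched the reference table, so names and pathway terms are those of the study, whose tables cover only genes differing between genotypes. No coordinates or sequences are given. Of 28 lists by gene name, 11 matched any gene, and muscle, fat body, ovary and male markers were not checked.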

Additional observations from a re-analysis of the deposited data

Results flagged for a closer look

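Each named gene was looked at for a library lying far from the other 5 of its group, which chance gives in about 1 of 20 groups, and for a change that differed between genotypes. Among 132 groups of 6 values, 16 held such a library, and in 10 of them it was WT ZT9 replicate 4. That library gave 258 CPM for AAEL005255 (the other 5 at 195 to 212), 139 for AAEL011371 (97.5 to 110), 250 for AAEL018126 (320 to 360), 6.64 for AAEL013197 (3.83 to 4.64), 15.2 for AAEL013077 (9.75 to 11.8), 102 for AAEL009991 (69.4 to 77.1), 123 for AAEL005839 (85.7 to 94.1), 343 for AAEL021931 (209 to 240), 151 for AAEL020729 (88.7 to 103) and 37.5 for AAEL007055 (24.2 to 27.8). WT ZT9 replicate 2, the library with 2 labels, gave 67.7 CPM for the cecropin AAEL029041 (the others at 0.725 to 9.06) and 18.8 for the lectin AAEL005641 (1.25 to 3.9). WT ZT9 replicate 6 gave 96 CPM for AAEL010716 (87.2 to 89.8). At ZT5, replicate 2 gave 5.74 CPM for AAEL009044 (4.43 to 4.89), replicate 6 gave 49.5 for AAEL009991 (45.1 to 46) and replicate 5 gave 12.4 for AAEL000905 (9.42 to 10.5).

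The change from ZT5 to ZT9 differed between WT and KO in the interaction test of edgeR for 6 named genes, as WT change minus KO change on the log2 scale. It was -0.93 for Cyc (AAEL002049), -1.13 for AAEL009126, -0.81 for AAEL013077, -1.06 for AAEL009044, -0.87 for AAEL009432 and -0.93 for AAEL000905.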

How the results depend on the processing

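The 131 calls were not a fixed set. Leaving out 1 library at a time gave between 77 and 195 calls, and 66 of the 131 genes (26 higher, 40 lower) stayed called in all 12 such fits. Higher genes numbered 30 to 60 and lower genes 43 to 135. The count of calls dropped by over 1.5 times without WT ZT5 replicate 2 (77), 3 (82) or 5 (77) or WT ZT9 replicate 1 (77) or 5 (83). DESeq2's Wald test called 325 genes, among them all 131, and all 24 WT libraries in a single fit 250, sharing 124. DESeq2's size factors and no filter gave counts within 1.5 times the main one and shared 130 and 107. Genes called past 2-fold numbered 17 to 31 over the fits without 1 library (31 without WT ZT9 replicate 6) and 38 with DESeq2. With the replicate number as a block, 56 genes were called, 52 of them shared. The numbers did not pair the samples, since same-numbered libraries at ZT5 and ZT9 deviated with correlations from -0.05 to 0.03 and 0 of 6 matched its own number best. Of 768 values of the 64 named genes in the fits without 1 library, 151 lost their call. Of their 64 values under each other setting, 25 lost it with the block, 6 without a filter and 2 in the single fit of the WT, while DESeq2 and that single fit each added 2. The fall of Cyc kept its direction and its call in every alternative listed, block included (-1.13). That fall was known when the comparison was chosen, so this is a description and no independent evidence. AAEL005255, not called, ran from -0.055 to 0.030 over the fits without 1 library, below 0 without WT ZT5 replicate 1 or 2 or WT ZT9 replicate 4, and was also below 0 with DESeq2 (-0.000183), without a filter (-0.0037) and with the block (-6.72e-05). Genotype by time gave 3 to 17 calls without 1 library, with 3 when KO ZT9 replicate 4 or WT ZT9 replicate 5 was left out, and 38 with DESeq2. KO ZT9 against ZT5 gave 1 to 7 calls without 1 library, 1 of them without KO ZT5 replicate 1 or 4 or KO ZT9 replicate 1, 3 or 4, 2 without KO ZT9 replicate 2, 5 or 6, 3 without KO ZT5 replicate 6, and 111 with DESeq2. WT ZT13 against ZT1 gave 1181 to 1948 calls without 1 library. At 6 pools per group, changes of weakly expressed genes were estimated with wide errors.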
